A study of Mus musculus with 9 samples.

Results

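The lysosomal protease, proton pump and membrane genes described here were the 43 of 35321 genes in the table whose symbols begin with Cts and 1 further letter, with Atp6v0 or Atp6v1, or with Lamp and a digit. They comprised 16 cathepsins, 12 subunits of the V1 sector and 9 of the V0 sector of the proton pump, 2 pump pseudogenes, the pump neighbour gene Atp6v1fnb and 3 Lamp genes. Poly(A) RNA was sequenced from 9 samples of subcutaneous tumours of LLC, the Lewis lung carcinoma line of the C57BL/6 mouse. All tumours grew under the skin of the right flank of C57BL/6 males that were 4 to 5 weeks old. Mice were treated by intraperitoneal injection, beginning 5 days after they received the cells. The groups of 3 samples each were given vehicle (PBS), 0.1 mg/kg digoxin or 1 mg/kg digoxin. Digoxin is a cardiac glycoside that blocks the sodium-potassium pump of the plasma membrane. The labels name no age or number of treatments at collection and do not state whether each sample was a different mouse. The p-values therefore describe the spread among these 9 samples, part of which may be technical.

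Lysosomes break down proteins, lipids and sugars delivered by endocytosis, phagocytosis and autophagy. Their acid interior is kept by the vacuolar ATPase, whose cytosolic V1 sector hydrolyses ATP to turn a ring in the membrane-embedded V0 sector that carries protons inward. Cathepsins are the main lysosomal proteases, most of them cysteine proteases, and in tumours they are abundant in macrophages as well as in cancer cells. Lamp1 and Lamp2 are heavily glycosylated proteins that line the lysosomal membrane.

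The values were FPKM, reads scaled by gene length and library depth, and the depth recovered from their spacing was 48649867 to 51810956 in vehicle libraries, 42870997 to 43319883 with 0.1 mg/kg and 40517062 to 42252370 with 1 mg/kg. Of the 43 genes, 30 belonged to the 13687 genes with 1 FPKM or more in 3 or more of the 9 libraries, which were tested with limma on log2(FPKM + 1). A gene was called where its Benjamini-Hochberg adjusted p over all 13687 genes was under 0.05. A principal component analysis of all tested genes put 69.4% of the variance on a first component with 4 of the 6 digoxin libraries at 35.7 to 37.9 and the vehicle libraries at −55.0 to −47.6. Replicate 2 at 0.1 mg/kg, at −0.604, and replicate 1 at 1 mg/kg, at 9.12, lay between them, so values without both are given where they differ. They were picked from these same values as the digoxin libraries nearest vehicle, so leaving them out favours calls against vehicle. Without both, 4371 of all tested genes were called higher and 4053 lower at 0.1 mg/kg, against 2952 and 2829 with them. At 1 mg/kg the counts were 4298 and 4094, against 2833 and 3444. Calls gained without both are therefore no separate support for a difference. Of 5 lung epithelium markers found, Nkx2-1 was listed at 0 in 8 of the 9 libraries, and Sftpb, Sftpc, Scgb1a1 and the epithelial gene Epcam had at most 0.179 FPKM. The fifth, Napsa, an aspartic protease of alveolar cells, ranged over 4.03 to 6.69 FPKM with digoxin and 1.48 to 2.295 FPKM with vehicle and was called higher at both doses with limma. In such bulk samples fewer cells of a type and less RNA per cell cannot be told apart.

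At 0.1 mg/kg, 14 of the 30 tested genes rose and 0 fell against vehicle, where 21.6% of all tested genes rose and 20.7% fell (42.2% in either direction). The 2 genes with an unadjusted p under 0.05 in the lower direction were Ctsl and Atp6v1a, and limma-voom on recovered reads also called 0 lower. Without vehicle replicate 2 the 14 rises became 9, while the rises among all tested genes went from 2952 to 1806. The median log2 fold change was 0.25 for these genes and 0.02 for all tested genes. At 1 mg/kg, 11 genes rose and 1 fell, against 20.7% and 25.2% of all tested genes (45.9% in either direction), and the medians were 0.19 and −0.04. The 11 rises became 7 without vehicle replicate 2 and 6 without vehicle replicate 3. Among all tested genes the rises went from 2833 to 1935 and 1888 in the same fits. Over all tested genes at 0.1 mg/kg, 2952 were called higher and 2829 lower, but rescaling to TPM gave 2368 and 3790 and quantile normalisation 2403 and 3552, with 11 of the 30 genes higher under each. Cathepsins accounted for 7 of the 14 rises at 0.1 mg/kg and for 3 of the 11 at 1 mg/kg, pump subunits for 6 and 7, and a pump pseudogene for 1 at each dose. Both dose comparisons used the same 3 vehicle libraries. By groups that did not overlap, 19 genes were higher and 1 lower at 0.1 mg/kg, beside 32.3% and 27.9% of all tested genes, and 16 were higher and 5 lower at 1 mg/kg, beside 25.2% and 33.1%.

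**Figure D1:**
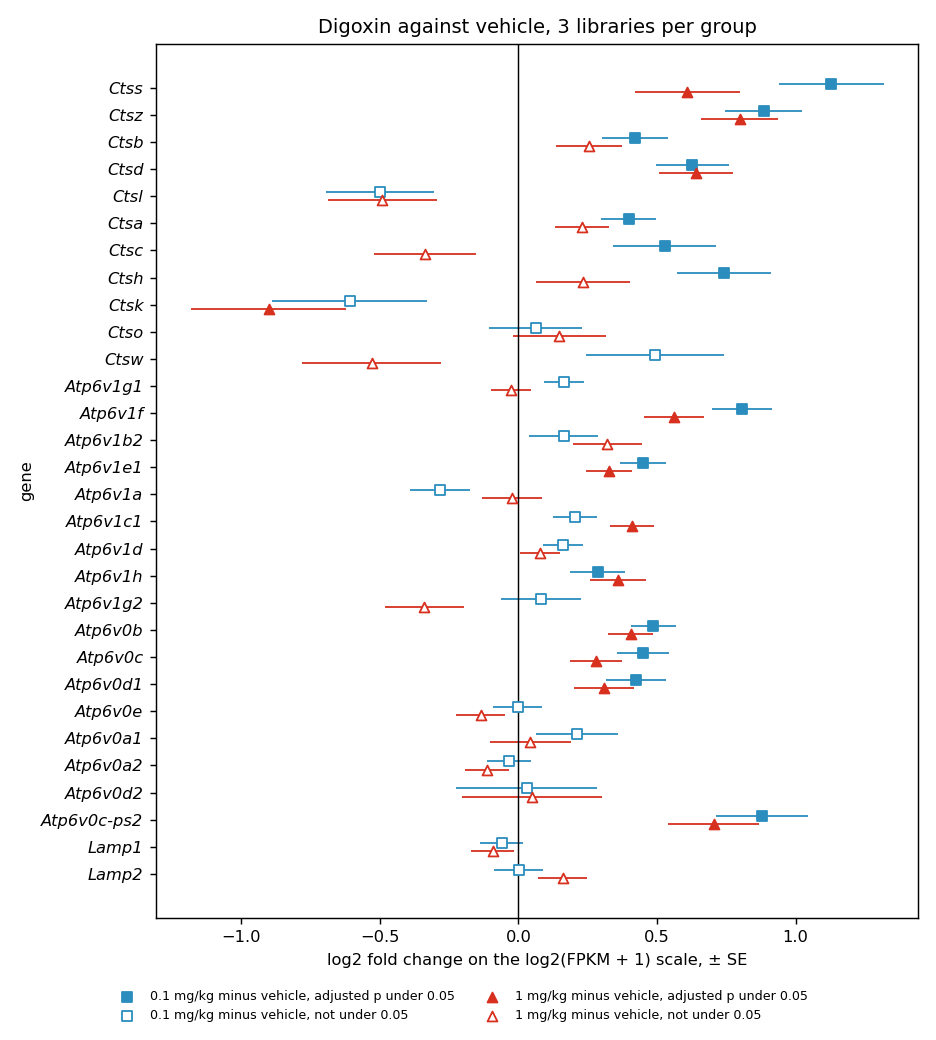
Log2 fold change, on the log2(FPKM + 1) scale, of each of the 30 tested genes at 0.1 mg/kg (squares) and 1 mg/kg (triangles) digoxin against vehicle; bars are ± 1 SE and filled symbols have an adjusted p under 0.05. Filled symbols lie right of 0 except for Ctsk at 1 mg/kg, and Ctss at 0.1 mg/kg reaches 1.13.

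Among the cathepsins, Ctss, Ctsz and Ctsd were higher at both doses. Cathepsin S, encoded by Ctss, is a cysteine protease of antigen-presenting cells that cleaves the invariant chain of MHC class II and stays active at neutral pH. Ctss had 236, 249.7 and 248 FPKM in the vehicle libraries, 588, 419 and 624 FPKM at 0.1 mg/kg, and 451, 399 and 289 FPKM at 1 mg/kg. Every digoxin library lay above every vehicle library, with the lowest digoxin value in replicate 3 at 1 mg/kg. Ctss rose by 1.13 ± 0.19 (log2, SE) at 0.1 mg/kg (limma adjusted p = 0.00309) and by 0.61 ± 0.19 at 1 mg/kg (limma adjusted p = 0.0289). The call at 1 mg/kg was lost on leaving out any single vehicle library, or replicate 1 or 2 at 1 mg/kg, with limma adjusted p of up to 0.0835. It was also lost with the replicate block (limma adjusted p = 0.051), with no filter (0.0798) and with quantile normalisation (0.066), and held at 0.0156 without both intermediate libraries.

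Cathepsin Z, encoded by Ctsz, is a carboxypeptidase of monocytes and macrophages. Ctsz had 267, 237 and 229.8 FPKM in vehicle libraries, 511, 359 and 503 FPKM at 0.1 mg/kg, and 406, 427 and 444 FPKM at 1 mg/kg. Neither digoxin group overlapped vehicle, and the call held in every alternative run. Ctsz averaged 458 ± 85.7 FPKM at 0.1 mg/kg and 245 ± 19.9 FPKM with vehicle (SD, n = 3 each), a log2 rise of 0.89 ± 0.14 (SE; limma adjusted p = 0.00238). At 1 mg/kg its rise was 0.80 ± 0.14 (limma adjusted p = 0.00287), with a mean of 426 ± 18.8 FPKM.

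Cathepsin D, encoded by Ctsd, is the main aspartic protease of lysosomes. Ctsd had 184, 154 and 129 FPKM in vehicle libraries, 257, 211 and 249.9 FPKM at 0.1 mg/kg, and 247, 234 and 242 FPKM at 1 mg/kg. The widest spread was among the vehicle libraries, yet each of them lay under all 6 digoxin libraries. The rises were 0.63 ± 0.13 at 0.1 mg/kg (log2, SE; limma adjusted p = 0.00712) and 0.64 ± 0.13 at 1 mg/kg (limma adjusted p = 0.00558), and both held in every alternative run.

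The start regions of these 3 genes are shown because the genes rose at both doses and differ in the short sequences they hold. CACGTG is the core E-box, the shape of site bound by the MiT/TFE factors that drive lysosomal genes and by other helix-loop-helix factors. A GAAA pair, meaning GAAA followed after any 2 bases by GAAA on either strand, is the repeat bound by interferon regulatory factors. Sequences are from RefSeq (GRCm38.p6), each running 5′ to 3′ on the gene's strand from 250 bases before the annotated start to 50 after, with CACGTG and GAAA pairs in capitals. The Ctsd window (chr7:142387778-142388077, minus strand) holds CACGTG 245 and 98 bases before the start. The Ctss window (chr3:95526536-95526835, plus strand) holds a GAAA pair 21 bases before it, and the Ctsz window (chr2:174438990-174439289, minus strand) holds neither.
Ctsd: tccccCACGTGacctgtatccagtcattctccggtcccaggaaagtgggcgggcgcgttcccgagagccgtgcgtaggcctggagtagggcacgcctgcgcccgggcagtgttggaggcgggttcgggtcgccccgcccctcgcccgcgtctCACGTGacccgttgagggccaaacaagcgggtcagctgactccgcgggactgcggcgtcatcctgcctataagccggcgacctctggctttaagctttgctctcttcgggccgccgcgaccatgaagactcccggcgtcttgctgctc
Ctss: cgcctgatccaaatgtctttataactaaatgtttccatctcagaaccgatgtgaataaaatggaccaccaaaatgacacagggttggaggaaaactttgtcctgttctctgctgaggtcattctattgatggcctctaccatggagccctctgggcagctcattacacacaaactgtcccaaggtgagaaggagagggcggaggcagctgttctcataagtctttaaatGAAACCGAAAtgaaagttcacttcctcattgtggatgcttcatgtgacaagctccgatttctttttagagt
Ctsz: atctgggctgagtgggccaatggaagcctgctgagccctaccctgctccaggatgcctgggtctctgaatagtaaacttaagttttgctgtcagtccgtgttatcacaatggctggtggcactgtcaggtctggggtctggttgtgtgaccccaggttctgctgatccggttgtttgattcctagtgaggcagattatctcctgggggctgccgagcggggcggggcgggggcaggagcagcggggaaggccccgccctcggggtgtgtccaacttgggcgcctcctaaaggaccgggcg

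Ctsa, Ctsb, Ctsc and Ctsh were called at 0.1 mg/kg and not at 1 mg/kg. Ctsh encodes an aminopeptidase that also processes surfactant proteins in lung. Ctsh had 12.5, 12.3 and 12.9 FPKM in vehicle libraries, 29.0, 16.8 and 20.9 FPKM at 0.1 mg/kg, and 16.7, 13.9 and 14.2 FPKM at 1 mg/kg. Vehicle libraries were close together and lay below both digoxin groups. The lowest library at 0.1 mg/kg, at 16.75 FPKM, was barely above the highest at 1 mg/kg, at 16.73 FPKM. The difference between the doses was not called (limma adjusted p = 0.253). Its log2 rise was 0.74 ± 0.17 at 0.1 mg/kg (SE; limma adjusted p = 0.00966), against a difference of 0.23 ± 0.17 at 1 mg/kg that was not called (limma adjusted p = 0.284).

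Ctsc encodes the dipeptidyl peptidase that activates serine proteases of neutrophil, mast cell and cytotoxic lymphocyte granules. Ctsc had 48.7, 53.5 and 49.1 FPKM in vehicle libraries, 88.6, 53.8 and 81.8 FPKM at 0.1 mg/kg, and 47.0, 33.9 and 39.2 FPKM at 1 mg/kg. Replicate 2 at 0.1 mg/kg lay just above the highest vehicle library, while all 3 libraries at 1 mg/kg lay below the lowest one. The rise at 0.1 mg/kg was 0.53 ± 0.19 (log2, SE; limma adjusted p = 0.0475). The call was lost in 6 of 9 fits with a library left out (vehicle replicate 1, 2 or 3, replicate 1 or 3 at 0.1 mg/kg, or replicate 3 at 1 mg/kg), with limma adjusted p of up to 0.154. It was also lost with no filter (limma adjusted p = 0.11), quantile normalisation (0.0668), TPM (0.0976) and no mean-variance trend (0.0534). Without both intermediate libraries it was 0.75 at 0.1 mg/kg (limma adjusted p = 0.000209) and −0.46 at 1 mg/kg (limma adjusted p = 0.00221), and leaving out replicate 2 at 0.1 mg/kg alone also called it lower at 1 mg/kg (limma adjusted p = 0.0433).

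Ctsb, the most abundant cysteine cathepsin of many tissues, had 336, 300.5 and 272 FPKM in vehicle libraries, 437, 363 and 417 FPKM at 0.1 mg/kg, and 408, 339 and 339 FPKM at 1 mg/kg. Every digoxin library was above the vehicle libraries, by a small margin for several. Ctsb rose by 0.42 ± 0.12 at 0.1 mg/kg (log2, SE; limma adjusted p = 0.0221) and differed by 0.26 ± 0.12 at 1 mg/kg without a call (limma adjusted p = 0.108). The call at 0.1 mg/kg was lost without vehicle replicate 2 or 3, or without replicate 1 or 3 at 0.1 mg/kg, with limma adjusted p of up to 0.0862, and with no filter (0.065), quantile normalisation (0.0646) and TPM (0.0589). Ctsa encodes protective protein, a serine carboxypeptidase that stabilises beta-galactosidase and neuraminidase. Ctsa had 55.3, 49.96 and 51.9 FPKM in vehicle libraries, 78.0, 60.3 and 70.6 FPKM at 0.1 mg/kg, and 61.1, 63.9 and 59.5 FPKM at 1 mg/kg. Its digoxin libraries also all lay above vehicle. Ctsa rose by 0.40 ± 0.10 (log2, SE) at 0.1 mg/kg (limma adjusted p = 0.013, and 0.0529 without vehicle replicate 2). At 1 mg/kg the difference of 0.23 ± 0.10 was not called (limma adjusted p = 0.0846). That difference was called without replicate 2 at 0.1 mg/kg (limma adjusted p = 0.0288), without both intermediate libraries (0.0259) and in a fit of only the 2 groups (0.0328).

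**Figure D2:**
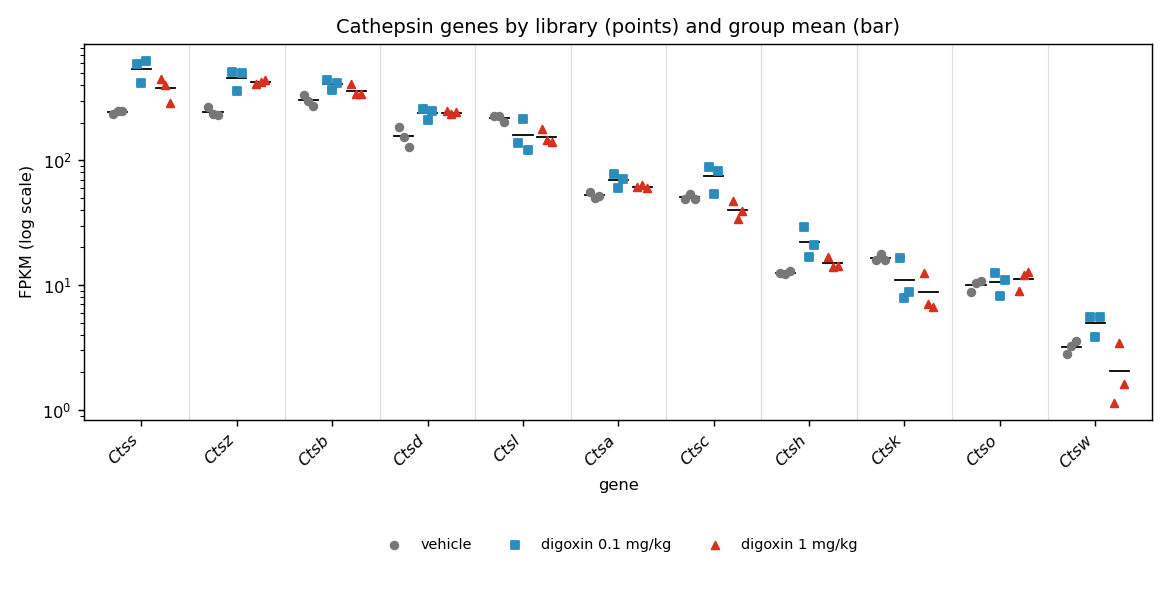
FPKM (log axis) of the 11 tested cathepsins in each library, with vehicle at the left, 0.1 mg/kg in the middle and 1 mg/kg at the right of each gene; points are libraries and bars group means. Ctss and Ctsz lie above vehicle in all 6 digoxin libraries, while Ctsk falls to between 6.66 and 12.5 FPKM at 1 mg/kg.

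Ctsk was called lower at 1 mg/kg, and Ctsl, also below vehicle in most digoxin libraries, was not called. Cathepsin K, encoded by Ctsk, is a collagenase best known from osteoclasts and also made by fibroblasts. Ctsk had 15.9, 17.8 and 16.02 FPKM in vehicle libraries, 16.4, 7.86 and 8.86 FPKM at 0.1 mg/kg, and 12.5, 6.99 and 6.66 FPKM at 1 mg/kg. At 1 mg/kg all libraries lay below vehicle, while at 0.1 mg/kg replicate 1 lay within the vehicle range. Ctsk fell by 0.90 at 1 mg/kg (log2, SE 0.28; limma adjusted p = 0.0289) and differed by −0.61 ± 0.28 at 0.1 mg/kg without a call (limma adjusted p = 0.109). The call at 1 mg/kg was lost on leaving out any single vehicle library, or replicate 2 or 3 at 1 mg/kg, with limma adjusted p of up to 0.0955, and with no filter (0.0751). The call at 0.1 mg/kg was gained without replicate 1 of that dose (limma adjusted p = 0.0268).

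Fibroblast markers moved in both directions beside Ctsk. The 7 markers summed to 387 to 408 FPKM in vehicle libraries, 202 to 296 FPKM at 0.1 mg/kg and 220 to 285 FPKM at 1 mg/kg. At 1 mg/kg 4 of the 7 fell and 1 rose, and at 0.1 mg/kg 3 fell and 2 rose. The shares at 1 mg/kg were 57.1% lower and 14.3% higher, beside 25.2% and 20.7% of all tested genes. At 0.1 mg/kg they were 42.9% and 28.6%, beside 20.7% and 21.6%. The 6 osteoclast markers, of which 3 were tested, summed to 54.7 to 60.3 FPKM with vehicle, 25.1 to 62.9 FPKM at 0.1 mg/kg and 18.1 to 48.7 FPKM at 1 mg/kg, with Calcr at 0 in 6 libraries. Most of each sum was Acp5, at 6.52 to 23.7 FPKM over all libraries, and Mmp9, at 11.1 to 40.1 FPKM. Calcr, Dcstamp and Oscar had at most 0.0118, 0.330 and 0.812 FPKM in any library and were not tested. Of the 3 tested, 2 fell and 0 rose at 1 mg/kg, or 66.7% lower beside 25.2% of all tested genes. At 0.1 mg/kg 0 were called in either direction. The part of both marker lists in the result was not tested.

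Cathepsin L, encoded by Ctsl, is a broadly acting cysteine endopeptidase of lysosomes. Ctsl had 227, 224 and 201 FPKM in vehicle libraries, 138, 215 and 121 FPKM at 0.1 mg/kg, and 177, 147 and 141 FPKM at 1 mg/kg. Replicate 2 at 0.1 mg/kg lay within the vehicle range, and the other 5 digoxin libraries lay below it. The differences of −0.50 ± 0.20 at 0.1 mg/kg (log2, SE; limma adjusted p = 0.0676) and −0.49 ± 0.20 at 1 mg/kg (limma adjusted p = 0.0686) were not called. Without both intermediate libraries they were −0.74 (limma adjusted p = 0.000262) and −0.59 (limma adjusted p = 0.000781). Leaving out replicate 2 at 0.1 mg/kg alone gave calls at both doses, with limma adjusted p of 0.0022 for 0.1 mg/kg and 0.00749 for 1 mg/kg. The call at 1 mg/kg was also gained without replicate 3 at 0.1 mg/kg (limma adjusted p = 0.0475) or replicate 1 at 1 mg/kg (0.047), and in a fit of only the 2 groups (0.0112). Quantile normalisation and TPM called Ctsl lower at both doses, with limma adjusted p of 0.0261 and 0.0345 for 0.1 mg/kg and 0.0232 and 0.0406 for 1 mg/kg.

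The makeup of the cathepsin transcripts was compared by shares. The summed FPKM of the 16 cathepsin genes was 1395, 1313 and 1225 in vehicle libraries, 2164, 1718 and 2114 with 0.1 mg/kg, and 1837, 1681 and 1590 with 1 mg/kg. Ctsl made up 16.3% to 17.1% of that sum in vehicle libraries, 5.72% to 12.5% with 0.1 mg/kg and 8.72% to 9.66% with 1 mg/kg. Ctsz made up 18.04% to 19.16% with vehicle, 20.9% to 23.8% with 0.1 mg/kg and 22.1% to 27.9% with 1 mg/kg. Both shares were separated from vehicle in every digoxin library, whereas the Ctss share of 16.9% to 20.3% with vehicle overlapped that of 18.2% to 24.6% at 1 mg/kg and lay below the 24.4% to 29.5% at 0.1 mg/kg. Shares depend on the gene lengths the authors used, which fitted at 1358 bases for Ctss and 6489 for Ctsl. With 3 libraries a group an exact two-sided permutation test cannot go below p = 0.10, so no test of these shares is given.

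**Figure D3:**
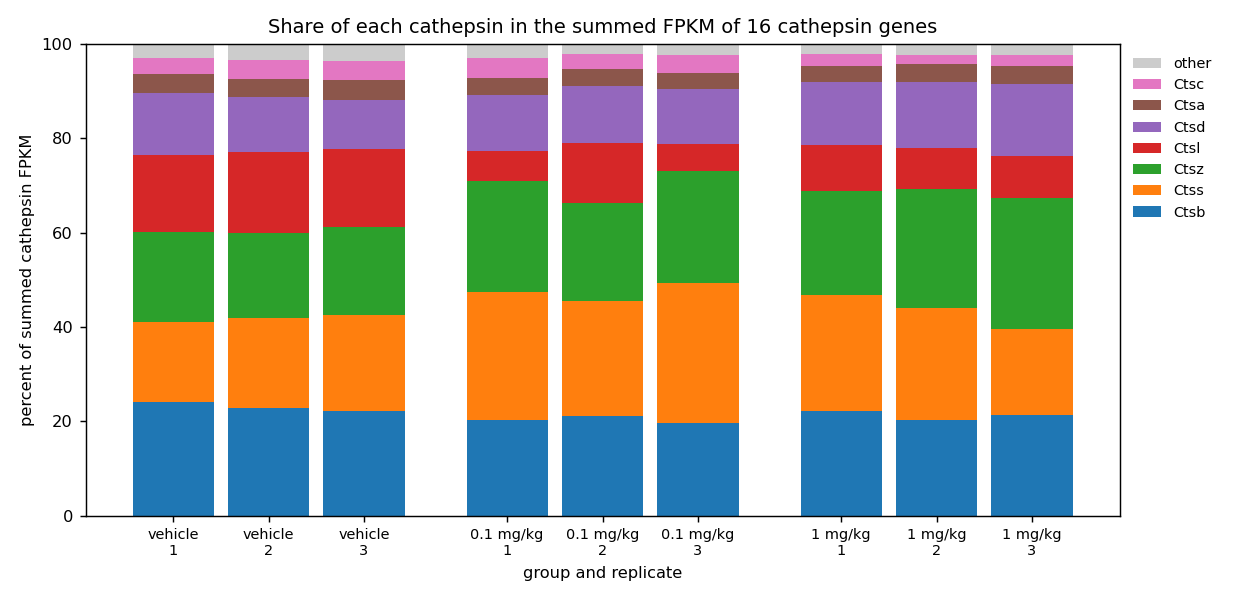
Share of each cathepsin in the summed FPKM of the 16 cathepsin genes, in percent, with 1 bar per library. The Ctsl band is 5.72% to 12.5% in digoxin bars, widest in replicate 2 at 0.1 mg/kg, and 16.3% to 17.1% in vehicle bars.

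Ctso and Ctsw were not called at either dose. Ctso, a little-studied cysteine cathepsin, ranged over 8.72 to 10.7 FPKM with vehicle, 8.24 to 12.4 FPKM at 0.1 mg/kg and 8.88 to 12.6 FPKM at 1 mg/kg, and its log2 differences were 0.06 and 0.15, with a call at 1 mg/kg without both intermediate libraries (limma adjusted p = 0.0313). Ctsw encodes cathepsin W of cytotoxic lymphocytes. Ctsw had 2.82 to 3.54 FPKM with vehicle, 3.80 to 5.59 FPKM at 0.1 mg/kg and 1.14 to 3.41 FPKM at 1 mg/kg. Its differences against vehicle were 0.49 ± 0.25 at 0.1 mg/kg (log2, SE; limma adjusted p = 0.14) and −0.53 ± 0.25 at 1 mg/kg (limma adjusted p = 0.113). Both were called without replicate 2 at 1 mg/kg (limma adjusted p = 0.037 and 0.0115), and the difference at 0.1 mg/kg also in a fit of only the 2 groups (0.0304) and without both intermediate libraries (0.0263). The 8 markers of cytotoxic lymphocytes summed to 18.2 to 22.0 FPKM with vehicle, 43.5 to 67.8 FPKM at 0.1 mg/kg and 14.1 to 36.1 FPKM at 1 mg/kg, and their part in the result was not tested.

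The other 5 cathepsins stayed under 1 FPKM in every library and were not tested. Ctsf reached 0.291 to 0.722 FPKM and Ctse 0.067 to 0.287 FPKM. Ctsg, which encodes a serine protease of neutrophil and mast cell granules, reached 0.0796, 0.0387 and 0 FPKM in vehicle libraries, 0.632, 0.406 and 0.358 FPKM at 0.1 mg/kg, and 0.0916, 0.811 and 0.836 FPKM at 1 mg/kg. Those values stood for 4, 2 and 0 recovered reads with vehicle, 28, 18 and 16 with 0.1 mg/kg, and 4, 34 and 35 with 1 mg/kg, so only replicate 1 at 1 mg/kg among the digoxin libraries was as low as a vehicle library. Mast cell markers summed to 20.2 to 24.9 FPKM with vehicle, 37.1 to 61.4 FPKM at 0.1 mg/kg and 10.2 to 87.0 FPKM at 1 mg/kg, and their part was not tested. Ctsj and Ctsr, cathepsins of the rodent placenta, had at most 1 recovered read in any library.

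Some macrophage markers rose beside the cathepsins at 0.1 mg/kg, and most were not called. All 10 markers were tested and none was at 0 in any library, and 4 rose at 0.1 mg/kg while 3 rose and 2 fell at 1 mg/kg. The shares at 0.1 mg/kg were 40% higher and 0% lower, beside 21.6% and 20.7% of all tested genes. At 1 mg/kg they were 30% and 20%, beside 20.7% and 25.2%. The 10 markers summed to 2767 to 3092 FPKM in vehicle libraries. The sums of 2878 to 4401 FPKM at the lower dose and 1928 to 3179 FPKM at the higher dose overlapped these. Lyz2 was the largest part of every sum, at 1565 to 1802 FPKM with vehicle and 1286 to 1977 FPKM at the lower dose. Taken singly, 7 markers lay above vehicle without overlap and 0 below it at the lower dose, with a median log2 difference of 0.65. At the higher dose 2 lay above and 2 below, with a median of −0.16. Of all tested genes, 32.3% lay above and 27.9% below at the lower dose, then 25.2% and 33.1%. The markers did not move as one: replicate 1 at 1 mg/kg had the lowest sum, with C1qa at 256 FPKM against 550 and 385.6 FPKM in the rest of its group, and yet the highest Cd68 of that group, at 208 FPKM against 153.8 and 159 FPKM. The part of macrophages in the cathepsin results was not tested.

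Turning to the proton pump, 6 of the 16 tested subunit genes rose with 0.1 mg/kg and 7 with 1 mg/kg, which was 37.5% and 43.75% beside 21.6% and 20.7% of all tested genes. None was called lower at either dose, and at an unadjusted p under 0.05 Atp6v1a was lower with 0.1 mg/kg and Atp6v1g2 with 1 mg/kg. Summed FPKM of the V1 genes was 262 ± 6.05 with vehicle, 341 ± 4.89 with 0.1 mg/kg and 312 ± 5.43 with 1 mg/kg (SD, n = 3 each). For V0 genes it was 206 ± 13.0 with vehicle, 268 ± 21.2 with 0.1 mg/kg and 246 ± 9.66 with 1 mg/kg. For both sectors the digoxin libraries lay above all vehicle libraries, and much of each sum came from a few genes.

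Subunit F, encoded by Atp6v1f, sits in the central rotor stalk of V1. Atp6v1f had 71.8, 70.9 and 69.7 FPKM in vehicle libraries, 122, 116 and 136 FPKM at 0.1 mg/kg, and 89.0, 115 and 112 FPKM at 1 mg/kg. Its vehicle values differed by little, and the lowest digoxin value, in replicate 1 at 1 mg/kg, was still above them. The log2 rise was 0.81 ± 0.11 at 0.1 mg/kg (SE; limma adjusted p = 0.00129) and 0.56 ± 0.11 at 1 mg/kg (limma adjusted p = 0.00426), and both held in every alternative run.

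Subunit E, encoded by Atp6v1e1, is part of the peripheral stalks that hold the V1 head still. Atp6v1e1 had 20.3, 18.3 and 17.8 FPKM in vehicle libraries, 27.6, 24.6 and 26.0 FPKM at 0.1 mg/kg, and 22.2, 25.6 and 23.9 FPKM at 1 mg/kg. The groups did not overlap with vehicle, with rises of 0.45 ± 0.08 at 0.1 mg/kg (log2, SE; limma adjusted p = 0.00444) and 0.33 ± 0.08 at 1 mg/kg (limma adjusted p = 0.0133). The call at 1 mg/kg was lost without vehicle replicate 2 or 3 (limma adjusted p of up to 0.05735).

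Subunit C, encoded by Atp6v1c1, and subunit H, encoded by Atp6v1h, bridge or regulate the contact between the sectors. Atp6v1c1 had 12.7, 11.3 and 11.9 FPKM in vehicle libraries, 15.2, 13.2 and 13.4 FPKM at 0.1 mg/kg, and 17.0, 15.5 and 16.2 FPKM at 1 mg/kg. Its 3 groups were in order of dose without overlap, and it was called at 1 mg/kg (log2 rise 0.41 ± 0.08, SE; limma adjusted p = 0.00474) and not at 0.1 mg/kg (0.20 ± 0.08; limma adjusted p = 0.0704, and 0.029 without both intermediate libraries). Atp6v1h had 5.47, 5.55 and 5.18 FPKM in vehicle libraries, 7.37, 6.91 and 6.16 FPKM at 0.1 mg/kg, and 8.31, 6.82 and 6.61 FPKM at 1 mg/kg. Vehicle values were again the lowest, with rises of 0.29 ± 0.10 at 0.1 mg/kg (log2, SE; limma adjusted p = 0.0482) and 0.36 ± 0.10 at 1 mg/kg (limma adjusted p = 0.0191). The Atp6v1h call at 0.1 mg/kg was lost in 8 of 9 fits with a library left out, all but the one without replicate 1 at 1 mg/kg (limma adjusted p of up to 0.15), and that at 1 mg/kg without vehicle replicate 3 (0.06855). The call at 0.1 mg/kg was also lost with no filter (limma adjusted p = 0.0916), quantile normalisation (0.0996), TPM (0.18) and no mean-variance trend (0.0513), and that at 1 mg/kg with TPM (0.053).

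Of the V0 genes, Atp6v0b and Atp6v0c encode the proteolipids c″ and c of the rotating ring, and Atp6v0d1 encodes subunit d, which couples the ring to the V1 stalk. Atp6v0b had 57.5, 53.9 and 55.0 FPKM in vehicle libraries, 83.5, 72.6 and 78.4 FPKM at 0.1 mg/kg, and 67.7, 78.1 and 75.7 FPKM at 1 mg/kg. Digoxin libraries at both doses lay well above vehicle, and the rises of 0.49 ± 0.08 at 0.1 mg/kg (log2, SE; limma adjusted p = 0.00309) and 0.41 ± 0.08 at 1 mg/kg (limma adjusted p = 0.00512) held in every alternative run. Atp6v0c had 59.8, 56.1 and 50.8 FPKM in vehicle libraries, 84.3, 69.2 and 75.5 FPKM at 0.1 mg/kg, and 70.9, 64.3 and 67.8 FPKM at 1 mg/kg. It rose by 0.45 ± 0.09 at 0.1 mg/kg (log2, SE; limma adjusted p = 0.00707) and by 0.28 ± 0.09 at 1 mg/kg (limma adjusted p = 0.038), where 6 of the 9 single-library omissions, those of vehicle replicate 2 or 3, replicate 3 at 0.1 mg/kg and each library at 1 mg/kg, ended the call (limma adjusted p of up to 0.139), as did no filter (0.0757), quantile normalisation (0.0632) and TPM (0.11).

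Atp6v0d1 had 51.7, 46.1 and 45.5 FPKM in vehicle libraries, 71.1, 56.0 and 66.8 FPKM at 0.1 mg/kg, and 53.5, 61.6 and 63.3 FPKM at 1 mg/kg. The intermediate libraries, replicate 2 at 0.1 mg/kg and replicate 1 at 1 mg/kg, were the lowest of their groups and lay just above vehicle. Its rises were 0.42 ± 0.11 at 0.1 mg/kg (log2, SE; limma adjusted p = 0.0152) and 0.31 ± 0.11 at 1 mg/kg (limma adjusted p = 0.0449). Leaving out vehicle replicate 2 or 3, or replicate 1 or 3 at 0.1 mg/kg, ended the call at 0.1 mg/kg (limma adjusted p of up to 0.0597), and 6 of the 9 omissions, those of each vehicle library, replicate 3 at 0.1 mg/kg and replicates 2 and 3 at 1 mg/kg, ended that at 1 mg/kg (up to 0.1385). The call at 1 mg/kg was also lost with the replicate block (limma adjusted p = 0.0757), no filter (0.0931), quantile normalisation (0.0538), TPM (0.0981) and no mean-variance trend (0.0555). Without both intermediate libraries the rises were 0.52 (limma adjusted p = 0.000591) and 0.38 (limma adjusted p = 0.00273).

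The windows of Atp6v0b and Atp6v0d1 (RefSeq, GRCm38.p6, 5′ to 3′ on the gene's strand, 250 bases before to 50 after the start) are shown because both genes rose at both doses and hold the E-box close to the start. CACGTG, in capitals, begins 36 and 18 bases before the start of Atp6v0b (chr4:117887280-117887579, minus strand) and 3 bases before that of Atp6v0d1 (chr8:105566015-105566314, minus strand).
Atp6v0b: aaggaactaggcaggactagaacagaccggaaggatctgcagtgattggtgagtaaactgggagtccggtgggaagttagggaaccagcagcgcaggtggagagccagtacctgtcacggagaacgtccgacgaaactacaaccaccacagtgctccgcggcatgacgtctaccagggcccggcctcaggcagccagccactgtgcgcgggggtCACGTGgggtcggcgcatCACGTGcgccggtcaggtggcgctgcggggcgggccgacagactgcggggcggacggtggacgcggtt
Atp6v0d1: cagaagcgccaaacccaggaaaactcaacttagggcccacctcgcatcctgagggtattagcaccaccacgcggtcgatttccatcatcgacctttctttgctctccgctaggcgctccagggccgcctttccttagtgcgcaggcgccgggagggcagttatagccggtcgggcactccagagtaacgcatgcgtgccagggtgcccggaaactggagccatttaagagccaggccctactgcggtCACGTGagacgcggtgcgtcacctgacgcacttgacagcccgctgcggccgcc

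The pseudogene Atp6v0c-ps2, a processed copy of Atp6v0c, had 2.17, 2.06 and 1.70 FPKM in vehicle libraries, 5.62, 4.06 and 3.87 FPKM at 0.1 mg/kg, and 4.68, 4.03 and 2.97 FPKM at 1 mg/kg. It was higher in every digoxin library and was called at both doses, with log2 rises of 0.88 ± 0.16 (SE; limma adjusted p = 0.00456) and 0.70 ± 0.16 (limma adjusted p = 0.00933). Those values stood for 41 to 112 recovered reads a library. How reads shared by the gene and its copy were divided is not given in the sources used here, so its values are uncertain. The other pseudogene, Atp6v0c-ps1, had at most 0.0511 FPKM.

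**Figure D4:**
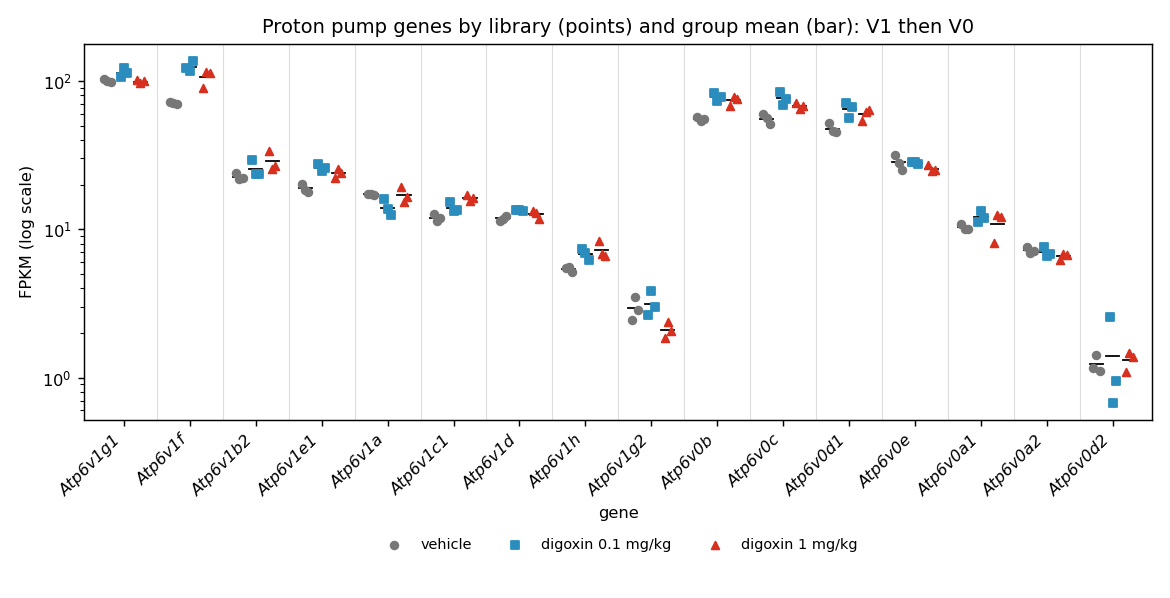
FPKM (log axis) of the 16 tested proton pump genes in each library, V1 genes first, with vehicle at the left, 0.1 mg/kg in the middle and 1 mg/kg at the right of each gene; points are libraries and bars group means. Atp6v1f, at 89.0 to 136 FPKM with digoxin and 69.7 to 71.8 FPKM with vehicle, shows a gap between the groups, and Atp6v1g1, at 96.2 to 122 FPKM with digoxin and 98.3 to 103 FPKM with vehicle, shows none.

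The genes of subunits A and B of V1 were not called. Atp6v1a, which encodes the ATP-hydrolysing subunit A, averaged 14.0 ± 1.76 FPKM at 0.1 mg/kg and 17.2 ± 0.179 FPKM with vehicle (SD, n = 3 each), a log2 difference of −0.28 ± 0.11 (SE; limma adjusted p = 0.0638). It was below vehicle in all 3 libraries at 0.1 mg/kg, and at 1 mg/kg, with 17.0 ± 2.07 FPKM, it overlapped vehicle (−0.02). Without replicate 1 at 0.1 mg/kg or replicate 1 at 1 mg/kg the difference at 0.1 mg/kg was called lower (limma adjusted p = 0.0394 and 0.0311), as it was without both intermediate libraries (0.0448), in a fit of only the 2 groups (0.0464), with quantile normalisation (0.0449) and with TPM (0.0237). Its partner subunit B, from Atp6v1b2, averaged 28.7 ± 4.51 FPKM at 1 mg/kg against 22.6 ± 1.10 FPKM with vehicle, an uncalled difference of 0.32 ± 0.12 (limma adjusted p = 0.0626) that was called without replicate 1 at 0.1 mg/kg (0.0465) and with the replicate block (0.023).

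Among the remaining V1 genes, Atp6v1g1 encodes subunit G of the peripheral stalk and had 103, 101 and 98.3 FPKM in vehicle libraries, 106, 122 and 113 FPKM at 0.1 mg/kg, and 101, 96.2 and 99.4 FPKM at 1 mg/kg. Libraries at 0.1 mg/kg lay a little above vehicle and those at 1 mg/kg overlapped it, with uncalled log2 differences of 0.16 and −0.03. Atp6v1d, a rotor stalk gene, averaged 13.4 ± 0.0685 FPKM at 0.1 mg/kg and 11.9 ± 0.463 FPKM with vehicle, a difference of 0.16 ± 0.07 without a call (limma adjusted p = 0.096), and at 1 mg/kg the difference was 0.08. Atp6v1g2, the subunit G form known best from brain, had 2.09 ± 0.260 FPKM at 1 mg/kg against 2.92 ± 0.537 FPKM with vehicle, an uncalled difference of −0.34 ± 0.14 (limma adjusted p = 0.0803). It was called lower with the replicate block (limma adjusted p = 0.0274), quantile normalisation (0.0489) and TPM (0.0465).

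In the V0 sector Atp6v0e, a small accessory subunit, spanned 24.5 to 31.5 FPKM over all libraries, with log2 differences of −0.0021 with 0.1 mg/kg and −0.14 with 1 mg/kg. The a-subunits, which form the proton path and steer the pump to different membranes, were not called in either of the listed forms. Atp6v0a1 had 10.3 ± 0.507 FPKM with vehicle, 12.1 ± 1.01 FPKM at 0.1 mg/kg and 10.8 ± 2.44 FPKM at 1 mg/kg, where replicate 1 was the lowest library at 8.03 FPKM. Without that library its difference at 0.1 mg/kg was called higher (limma adjusted p = 0.0462), and without both intermediate libraries so was that at 1 mg/kg (0.0189). Atp6v0a2 was at 6.20 to 7.62 FPKM in all libraries. The osteoclast form of subunit d, Atp6v0d2, had 0.677 to 2.58 FPKM over all libraries, reached 1 FPKM in 7 of 9, and differed by 0.03 and 0.05.

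The form of subunit a with a different gene symbol, Tcirg1 (a3, the form of osteoclasts and of macrophage lysosomes), rose at both doses. Tcirg1 averaged 75.6 ± 3.39 FPKM with vehicle, 108 ± 9.59 FPKM at 0.1 mg/kg and 106 ± 0.190 FPKM at 1 mg/kg (SD, n = 3 each), with log2 rises of 0.50 (SE 0.08; limma adjusted p = 0.00257) and 0.48 (SE 0.08; limma adjusted p = 0.00251). It made up 79.4% to 82.1% of the summed FPKM of the a-subunit genes in vehicle libraries, 82.9% to 85.7% with 0.1 mg/kg and 84.4% to 88.0% with 1 mg/kg. Of the other alternative forms, tissue-restricted genes were barely present: Atp6v0a4, Atp6v0e2, Atp6v1b1, Atp6v1c2 and Atp6v1e2 had at most 0.352, 0.269, 0.0958, 0.0750 and 0.0545 FPKM in any library. Atp6v1fnb, a neighbour of Atp6v1f rather than a pump subunit, had at most 0.135 FPKM.

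The Lamp genes were not called at either dose, with 0 of 2 tested genes at an unadjusted p under 0.05 in either direction. Lamp1 had 233, 222 and 224 FPKM in vehicle libraries, 227, 211 and 214 FPKM at 0.1 mg/kg, and 231, 205 and 202 FPKM at 1 mg/kg. All 3 groups overlapped, and the log2 differences were −0.06 ± 0.08 and −0.09 ± 0.08 (SE). Under quantile normalisation Lamp1 was called lower at both doses (limma adjusted p = 0.0216 at 0.1 mg/kg and 0.0115 at 1 mg/kg). Lamp2, which also serves as the receptor of chaperone-mediated autophagy, averaged 30.4 ± 2.56 FPKM with vehicle, 30.4 ± 2.25 FPKM at 0.1 mg/kg and 34.1 ± 1.69 FPKM at 1 mg/kg (SD, n = 3 each). Its log2 differences of 0.00 and 0.16 were not called. Lamp3, a marker of mature dendritic cells, had at most 0.0715 FPKM.

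The Lamp1 window (RefSeq, GRCm38.p6, chr8:13158911-13159210, plus strand, 5′ to 3′) is shown because it holds 4 copies of CACGTG while the gene was not called. They begin 61, 45, 28 and 15 bases before the start, with a GAAA pair on the other strand 135 bases before it, all in capitals.
Lamp1: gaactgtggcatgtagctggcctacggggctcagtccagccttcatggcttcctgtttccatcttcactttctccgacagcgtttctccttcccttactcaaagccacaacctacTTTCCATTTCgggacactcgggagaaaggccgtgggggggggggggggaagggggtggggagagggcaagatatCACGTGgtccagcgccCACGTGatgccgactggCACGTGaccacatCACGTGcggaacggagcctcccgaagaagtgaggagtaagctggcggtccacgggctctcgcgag
RefSeq gave 35 windows for 31 of the 43 genes, 20 of them tested, with more than 1 window for some genes. CACGTG occurred in 9 of the 35 windows and in 7.15% of all 32851 windows of the same length. The tested genes with it were 8, namely Ctsa, Ctsd, Ctsl, Atp6v0b, Atp6v0d1, Atp6v0e, Atp6v1a and Lamp1. The longer TCACGTGA, which contains it, occurred in 5 of the 35 windows, those of Ctsa, Ctsd, Atp6v0d1, Atp6v0e and Atp6v1a, and in 0.974% of all windows. A GAAA pair occurred in 5 of the 35 windows and in 3.44% of all windows, and the tested genes with it were Ctso, Ctss, Lamp1 and Atp6v1d. Of the 8 genes with CACGTG, 4 rose and 0 fell at the lower dose, while 3 rose and 0 fell at the higher dose. Of the 12 without it, 6 rose and 0 fell at the lower dose, while 5 rose and 1 fell at the higher dose. Among all tested genes 21.6% rose and 20.7% fell at the lower dose, then 20.7% and 25.2% at the higher dose. Whether genes with and without CACGTG differ was not tested.

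Between the doses, 0 of the 30 genes were called higher and 0 lower at 1 mg/kg than at 0.1 mg/kg with limma, beside 0% and 0.0146% of all tested genes. At an unadjusted p under 0.05, 2 were higher and 7 lower, and limma-voom called 0 in each direction. Values did not overlap for 2 genes that were higher, Atp6v1c1 and Lamp2, and for 8 that were lower, beside 6.05% and 11% of all tested genes. The 8 were Ctsc, Ctsh, Ctsw, Atp6v0e, Atp6v1d, Atp6v1f, Atp6v1g1 and Atp6v1g2. Among the tested cathepsins the widest gaps were in Ctsw at −1.02 ± 0.25 (log2, SE), Ctsc at −0.87 ± 0.19 and Ctss at −0.52 ± 0.19, with limma adjusted p of 0.157, 0.117 and 0.281. Without both intermediate libraries Ctsc at −1.20, Ctss at −0.83 and Ctsh at −0.76 were called lower at 1 mg/kg, with limma adjusted p of 0.00312, 0.0269 and 0.029. Leaving out replicate 2 at 0.1 mg/kg alone was enough to call Ctsc (limma adjusted p = 0.016).

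Other lysosomal genes were counted in lists of known members. Their shares are read beside 21.6% higher and 20.7% lower of all tested genes at 0.1 mg/kg, and 20.7% and 25.2% with 1 mg/kg. Of 36 other acid hydrolases and hydrolase activator proteins, 8 rose and 8 fell at 0.1 mg/kg, and 9 rose and 12 fell at 1 mg/kg. Their median log2 differences were 0.15 and −0.03. These were 22.2% higher and 22.2% lower at 0.1 mg/kg, close to all tested genes, and 25% and 33.3% at 1 mg/kg. Glb1, Gusb and Asah1 fell at both doses. The log2 changes were −0.58 and −0.84 for Glb1, the lysosomal beta-galactosidase, −0.43 and −0.73 for Gusb, beta-glucuronidase, and −0.37 and −0.51 for Asah1, acid ceramidase (limma adjusted p of 0.00683 or less in each case).

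Of 24 other lysosomal membrane genes, 13 rose and 3 fell at 0.1 mg/kg, and 6 rose and 4 fell at 1 mg/kg. The shares were 54.2% higher and 12.5% lower at 0.1 mg/kg, then 25% higher and 16.7% lower with 1 mg/kg. Clcn7, the chloride-proton exchanger of lysosomes, rose by 0.70 and 0.48 (log2; limma adjusted p = 0.00235 and 0.00894), and the peptide transporter Abcb9 rose by 0.75 at 0.1 mg/kg (limma adjusted p = 0.000939). Tpcn1, a cation channel of endosomes and lysosomes, fell at both doses (log2 −0.96 and −1.26; limma adjusted p = 0.00209 and 0.000675). Scarb2, the receptor that carries beta-glucocerebrosidase to lysosomes, fell at both doses (log2 −0.70 and −1.20; limma adjusted p = 0.0132 and 0.00137). Of 11 genes of mannose 6-phosphate tagging and sorting, 1 rose and 3 fell at 0.1 mg/kg and 0 rose and 3 fell at 1 mg/kg, with 9.09% and 27.3% and then 0% and 27.3% as shares. Gnptab, the phosphotransferase that starts the tag, fell at both doses (log2 −0.69 and −0.72), as did the mannose 6-phosphate receptor gene Igf2r (−1.40 and −1.86) and the retromer gene Vps35 (−0.35 and −0.31), with a limma adjusted p of 0.0201 or less in each case. Gga1, a sorting adaptor, rose by 0.22 at 0.1 mg/kg (limma adjusted p = 0.0281).

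Of 17 tested genes of MiT/TFE control and nutrient signalling at the lysosome, 8 rose and 1 fell at 0.1 mg/kg, and 8 rose and 2 fell at 1 mg/kg, which was 47.1% higher and 5.88% lower, then 47.1% and 11.8%. Flcn, encoding folliculin, averaged 10.4 ± 0.529 FPKM with vehicle, 19.9 ± 4.53 FPKM at 0.1 mg/kg and 25.9 ± 2.02 FPKM at 1 mg/kg, with log2 rises of 0.85 and 1.23 (limma adjusted p = 0.00296 and 0.000675). Its partner Fnip1 rose by 0.82 and 1.10, Rragc, a Rag GTPase, by 0.34 and 0.31, and Tfec, a MiT/TFE factor of macrophages, by 1.07 and 0.88 (limma adjusted p of 0.0066 or less in each case). A list of 12 genes held Tcirg1, itself a pump subunit, and partner and assembly genes of the pump. In it 1 gene rose with 0.1 mg/kg, which was Tcirg1, and 4 with 1 mg/kg. Vma21, Dmxl2 and Oxr1 were beside Tcirg1 at 1 mg/kg (log2 rises 0.27, 0.53 and 0.70, with limma adjusted p of 0.0381 or less). The shares higher were 8.33% and 33.3%, beside 21.6% and 20.7% of all tested genes.

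Of 8 tested cathepsin inhibitor genes, 4 rose with 0.1 mg/kg and 3 with 1 mg/kg, or 50% and 37.5% beside 21.6% and 20.7% of all tested genes. Serpinb1a, an inhibitor of neutrophil serine proteases including cathepsin G, averaged 1.85 ± 0.360 FPKM with vehicle, 9.52 ± 1.16 FPKM at 0.1 mg/kg and 7.58 ± 3.23 FPKM at 1 mg/kg, with log2 rises of 1.89 and 1.52 (limma adjusted p = 0.00139 and 0.00253). Serpina3g rose by 2.27 at 0.1 mg/kg (limma adjusted p = 0.0042), and the stefins Stfa2l1 and Stfa2 rose by 2.38 and 1.82 at 1 mg/kg (limma adjusted p = 0.00543 and 0.00582). The 8 neutrophil markers, 7 of them tested, summed to 50.2 to 181 FPKM with vehicle, 127 to 768 FPKM at 0.1 mg/kg and 502 to 1164 FPKM at 1 mg/kg, with Ly6g at 0 in 1 vehicle library, and their part in the inhibitor results was not tested.

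**Figure D5:**
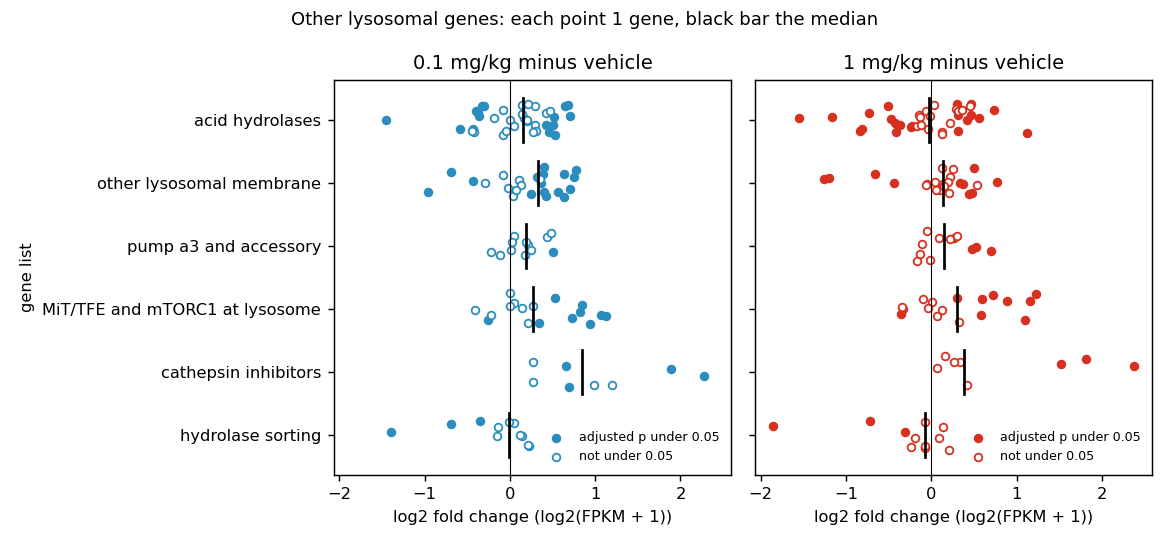
Log2 fold change of each tested gene of 6 lists of lysosomal and related genes at 0.1 mg/kg (left) and 1 mg/kg (right) against vehicle; each point is 1 gene, filled where its adjusted p is under 0.05, and black bars are medians. Igf2r, at −1.40 and −1.86, is the lowest sorting gene in both panels.

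Marker lists of further cell types were measured alongside. Skeletal muscle markers summed to 28.4 to 94.5 FPKM with vehicle, 127 to 265 FPKM at 0.1 mg/kg and 40.5 to 881 FPKM at 1 mg/kg, and B cell markers to 1.59 to 2.15, 11.2 to 13.5 and 3.66 to 15.4 FPKM. Dendritic cell markers summed to 143 to 171, 119 to 172 and 118 to 128 FPKM in the same order, endothelial markers to 30.6 to 40.2, 29.0 to 45.1 and 18.2 to 51.9 FPKM, and neutrophil precursor granule markers to at most 0.404, 1.98 and 1.69 FPKM. Most of the dendritic cell sum was Fscn1, and smaller members went opposite ways. Clec9a had 6.88 to 7.96 FPKM with vehicle and 0.337 to 2.84 FPKM with digoxin. Ccr7 had 1.28 to 1.83 FPKM with vehicle, 2.70 to 3.87 FPKM at 0.1 mg/kg and 0.538 to 2.48 FPKM at 1 mg/kg. Epithelial markers summed to 46.2 to 67.9, 81.9 to 109 and 112 to 137 FPKM, lung epithelium markers to 1.497 to 2.395, 4.27 to 6.85 and 4.27 to 4.91 FPKM, and the 3 trophoblast markers found to 2.51 to 7.22, 47.3 to 116 and 28.8 to 150 FPKM, almost all of it Prl2c2. The keratin genes within the epithelial list went opposite ways: Krt8 had 58.7 to 126 FPKM with digoxin and 1.70 to 4.13 FPKM with vehicle, while Krt18 had 0.932 to 16.8 FPKM with digoxin and 43.1 to 63.0 FPKM with vehicle. No marker found was at 0 in all libraries.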

How the data were processed

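Poly(A) RNA of 9 tumour samples, 3 per group, was measured, and the authors deposited 1 table of FPKM per gene symbol. Per the submitters' processing notes, fastp 0.22.0, HISAT2 2.2.1 and the build GRCh38 were used. That build is human while the symbols are of mouse genes, so no coordinates were taken from it. The read counter, its annotation, its use of strand and its handling of shared reads are not stated in those notes or the labels. FPKM uses 1 length per gene, so levels between genes depend on it, and reads of overlapping genes on opposite strands may not be told apart.

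Library depths were worked out from the steps between low FPKM values, which are whole reads over length and depth. With them, 13657 tested genes (99.8%) gave whole reads in all libraries within 0.03, and the number of reads limits the precision of genes with low values. The deposited FPKM values were transformed to log2(FPKM + 1), which understates changes of low genes. Genes reaching 1 FPKM in 3 or more libraries were tested with limma 3.58.1 (R 4.3.3), with 1 mean per group, 1 fit of all 9 libraries, a mean-variance trend and two-sided moderated tests, adjusted over all 13687 genes with a threshold of 0.05. Residual degrees of freedom were 6 and prior degrees of freedom 2.71. The step was tested on simulated data. Figures and sums used Python 3.11.15.

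The genes described and the gene lists were chosen with earlier results of these data known. Every tested gene is named, with a value per library for genes called at either dose and for others with a mean of at least 50 FPKM. Of each list, up to 4 genes with the smallest p are named, except 1 that is not reported here. Alternatives were a pseudocount of 0.1, no filter, a mean of at least 5 FPKM, quantile normalisation, TPM, no trend, 2-group fits, a replicate block, and leaving out each library or both intermediate ones. The intermediate libraries were picked from the principal component analysis of these data. After seeing the data, limma-voom on recovered reads was added. Start regions came from RefSeq (GRCm38.p6), matched by symbol.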

Additional observations from a re-analysis of the deposited data

How the results depend on the processing

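The count of genes called higher at 0.1 mg/kg (14) ranged from 9 to 15 on leaving out 1 library, and that at 1 mg/kg (11) from 6 to 12. Over all tested genes the same counts (2952 and 2833) ranged from 1803 to 3805 and from 1888 to 3849. The count called lower at 0.1 mg/kg (0) was 1 with no filter, 3 with quantile normalisation, 2 with TPM, 1 with only the 2 groups compared, 2 without both intermediate libraries and 0 to 2 on leaving out 1 library. The count called lower at 1 mg/kg (1) was 4 with quantile normalisation, 3 with TPM, 2 with only the 2 groups compared, 2 with the replicate block, 3 without both intermediate libraries and 0 to 3 on leaving out 1 library. Between the doses 0 were called lower, 3 without both intermediate libraries and 0 to 1 on leaving out 1 library. The cause was not tested. The labels do not state whether replicate numbers pair samples. Correlations of same-numbered deviations from group means ran from −0.441 to 0.279. They cannot decide it, because libraries with different numbers were not compared. With the replicate block 14 genes were higher and 0 lower with 0.1 mg/kg, 10 and 2 with 1 mg/kg, and 0 in each direction between the doses. TPM moved the median of all tested genes to −0.09 at 0.1 mg/kg, against 0.02, and to −0.12 at 1 mg/kg, against −0.04. Calls at both doses held in every alternative for Atp6v0b, Atp6v1f, Ctsd and Ctsz. Those for Atp6v0c-ps2 held in every alternative but the mean of at least 5 FPKM, where it was not tested.

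The sign of 1 or more log2 differences turned for some genes, none of them called in the comparison concerned. For 0.1 mg/kg against vehicle, these were without both intermediate libraries Atp6v0a2 (0.00077) and Atp6v1g2 (−0.029), with a pseudocount of 0.1 Atp6v0d2 (−0.026), with quantile normalisation Atp6v0d2 (−0.21), Atp6v1g2 (−0.0080) and Lamp2 (−0.041), with TPM Atp6v0d2 (−0.089), Atp6v1g2 (−0.0056), Ctso (−0.046) and Lamp2 (−0.11), and with limma-voom Atp6v0d2 (−0.043). Leaving out 1 library there gave −0.082 to 0.0025 for Atp6v0a2, −0.30 to 0.25 for Atp6v0d2, −0.079 to 0.077 for Atp6v0e, −0.029 to 0.18 for Atp6v1g2, −0.054 to 0.21 for Ctso and −0.069 to 0.062 for Lamp2. For 1 mg/kg against vehicle, these were with TPM Atp6v0a1 (−0.040) and Atp6v1d (−0.0018), and with quantile normalisation Atp6v0d2 (−0.030). Leaving out 1 library there gave −0.059 to 0.23 for Atp6v0a1 and −0.11 to 0.052 for Atp6v1a. For 1 mg/kg against 0.1 mg/kg, these were without both intermediate libraries Atp6v0a1 (0.074), Atp6v0d2 (−0.13), Atp6v1b2 (−0.014), Atp6v1h (−0.0050) and Ctsd (−0.093), and with quantile normalisation Ctsl (−0.0093). Leaving out 1 library there gave −0.27 to 0.015 for Atp6v0a1, −0.20 to 0.35 for Atp6v0d2, −0.015 to 0.13 for Atp6v1h, −0.075 to 0.068 for Ctsd, −0.56 to 0.0069 for Ctsk, −0.16 to 0.25 for Ctsl, −0.066 to 0.23 for Ctso, −0.25 to 0.0011 for Ctsz and −0.092 to 0.0043 for Lamp1. The cause was not tested.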
